A study of Drosophila melanogaster with 27 samples.

Results

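The proteasome subunit genes of Drosophila melanogaster were taken as the 48 genes whose symbol starts with Prosalpha or Prosbeta, or with Rpn or Rpt and a digit. Of these, 40 had a probe set annotated to that gene alone, 1 probe set each, among 11894 genes measured in this way. They were 26 of 32 genes with plain names and 14 of 16 copies whose names end in T or R, called testis-type copies below. The 26 plain genes were 6 of 7 alpha-ring and 6 of 7 beta-ring subunits of the core, 4 of 6 base ATPases, 3 of 4 other base subunits and 7 of 8 lid subunits. No probe set was listed for Prosbeta1, Rpt1, Rpt6, Rpn9, Rpn10 and Rpt6R, and Prosalpha1 and Prosalpha1R share 1 probe set, so these 8 genes have no value of their own.

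The proteasome is the protease that degrades proteins tagged with ubiquitin. Its core is a barrel of alpha and beta rings that encloses the proteolytic sites. On its ends sit regulatory particles, with a base that holds the ring of ATPases that unfolds substrates and a lid that removes their ubiquitin. Subunits are needed in fixed proportions, and in flies the transcription factor Cnc raises the subunit genes together when proteasome capacity is low. Several core and regulatory subunits have a copy used in the male germline.

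Expression was profiled in 27 samples of adult females, 3 biological replicates in each of 9 groups, with 10 flies per replicate aged up to 24 hours, on the second version of the Affymetrix Drosophila Genome array. Wild type was the y1 w67c23 strain. Flies with Df(3L)4470/+, Df(2L)ED4651/+ or Df(2L)J-H/+ carried that deletion on 1 homologue and came from balanced deletion stocks crossed to Oregon R. Haplo 4th flies, with 1 chromosome 4, came from wild type crossed to a stock with a compound chromosome 4, while those of the group Df(2L)J-H/+ haplo 4th, called the combined genotype below, came from the Df(2L)J-H stock crossed to that compound stock and were recognised by their Minute phenotype. Dp(2;2)Cam3/+ triplo 4th flies carried a duplication on 2L and 3 copies of chromosome 4. They came from the balanced duplication stock crossed to the same compound stock and were recognised by a non-Minute phenotype. The pof-mutant flies were a stock of y1 w67c23; PofD119/PofD119, with the same y and w alleles as wild type, and pof-mutant triplo 4th flies came from that stock crossed to flies with a Pof mutation, the CyO balancer and the compound chromosome 4. Group and cross therefore cannot be told apart, and all comparisons with wild type share its 3 arrays.

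Values are log2 expression. Each array was shifted by a constant so that its mean over 7378 expressed genes, those with a wild type mean above 6, matched that of wild type. This centring raised the 3 deletion groups against wild type: as deposited, the median gene lay at −0.27 in Df(3L)4470/+, −0.25 in both other deletions and −0.17 in the combined genotype. The 50 expressed genes of chromosome 4 averaged −0.71 to −0.47 in the haplo 4th arrays, −0.72 to −0.48 in the arrays of the combined genotype and 0.25 to 0.74 in the Dp(2;2)Cam3/+ triplo 4th arrays. Pof itself stood at 8.93 to 11 in the arrays labelled pof-mutant, above the 7.44 to 7.91 of wild type, and whether its probe set lies in the deleted part is not given in the sources used here. Arrays of a group correlated at 0.95 to 0.98 in wild type and at 0.62 to 0.90 in the arrays labelled pof-mutant. Of 18 male accessory gland and testis genes, 2 passed the filter, and 8 female germline genes averaged 9.78 to 10.2 in wild type arrays, 8.04 to 9.12 in Df(3L)4470/+ arrays, 7.53 to 8.25 in Df(2L)ED4651/+ arrays and 8.11 to 8.40 in Df(2L)J-H/+ arrays. In whole flies, fewer cells of a type and less RNA per cell cannot be told apart, and the part of these marker shifts in the results below was not tested. The 7 female soma and follicle cell genes ran from 11.2 to 13.3 in wild type and from 8.40 to 11 in the deletion arrays, and 3 muscle genes from 12.9 to 13.2 and from 13.6 to 13.8.

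All 26 plain genes passed the filter, with levels from 9.86 to 12.4 over the 27 arrays, while 0 of 14 testis-type copies did, at 3.66 to 6.05. The members varied little between replicates: their median SD within groups was 0.151, from 0.116 for Prosalpha6 to 0.217 for Rpn1, beside 0.316 for all expressed genes. Group means spread over a median of 0.70 among members and 1.02 among all expressed genes. Members also moved together within an array: in single wild type arrays, from 0 to 26 of the 26 lay above the wild type mean. Counts of members above or below 0 are therefore not counts of replicates. Df(2L)J-H/+ was the highest of the 9 groups for 25 of 26 members, and haplo 4th the lowest for 20. As deposited, Df(2L)J-H/+ was the highest for 16 members and the arrays labelled pof-mutant for 8, and haplo 4th was again the lowest for 20.

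**Figure D1:**
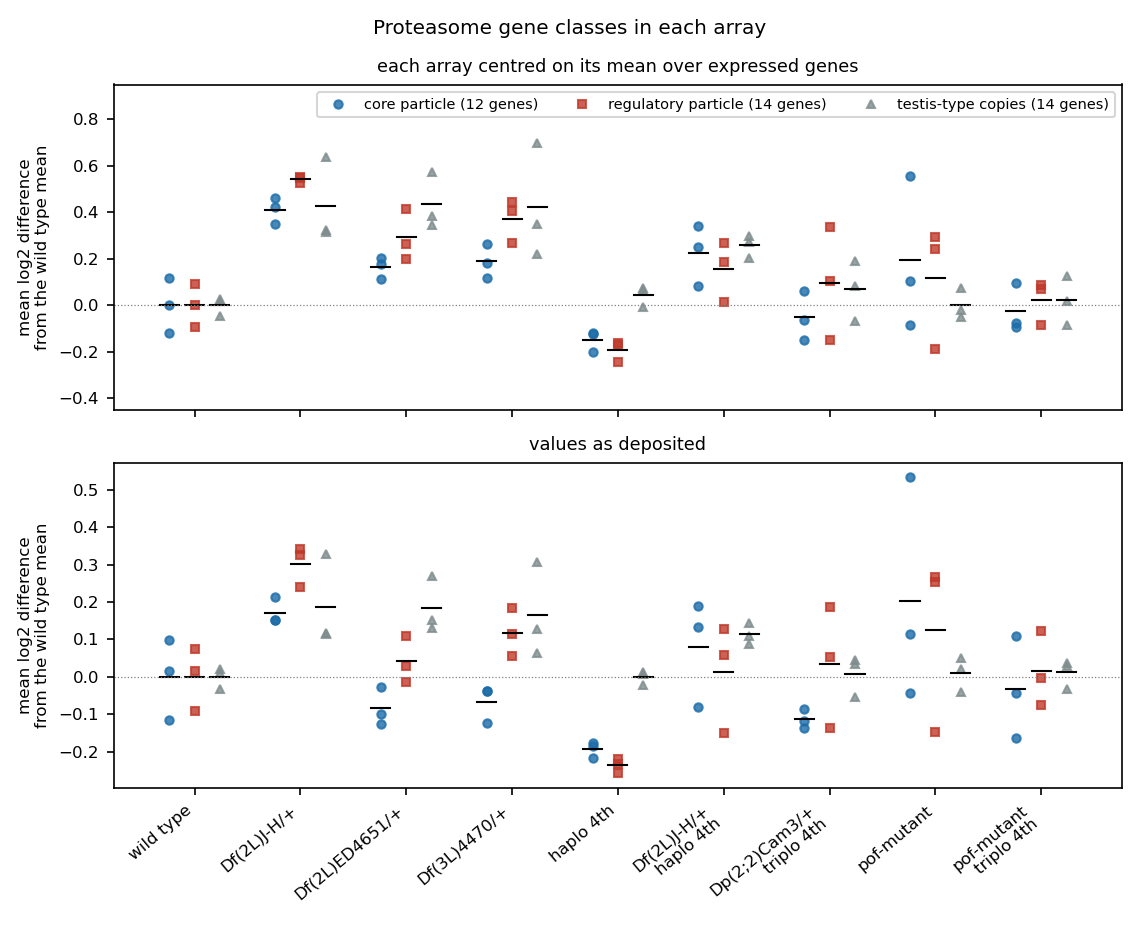
Mean log2 difference from the wild type mean over the 12 core genes, the 14 regulatory particle genes and the 14 testis-type copies, 1 point per array and a line at the mean of 3 arrays, after centring (upper panel) and as deposited (lower panel). Centred Df(2L)J-H/+ arrays lie from 0.35 to 0.55 for both plain classes. The core means of Df(2L)ED4651/+ and Df(3L)4470/+ lie above 0 after centring and below 0 as deposited.

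The loss of 1 copy of the Df(2L)J-H segment went with higher expression of most proteasome genes. Of the 26, 17 rose and 0 fell against wild type by limma (adjusted p under 0.05, Benjamini-Hochberg over all expressed genes), where 11% of all genes tested rose and 6.83% fell, and 21 had an unadjusted p under 0.05. The median member lay at 0.48, beside −0.01 for all genes, and the mean over members was 0.48 ± 0.03 (SD, n = 3 arrays), 139.7% of wild type. For 25 members all 3 arrays lay above all 3 wild type arrays, which held for 30% of all genes, and for Rpn6 all 3 lay below, as for 31.6% of all genes. As deposited, the median was 0.24 and 7 members rose. Without wild type replicate 2, wild type replicate 3 or Df(2L)J-H/+ replicate 3 the count was 10, 9 and 11.

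Rises were found in both parts of the particle, in 11 of 14 regulatory genes with a median of 0.56 and in 6 of 12 core genes. The core had a median of 0.39, and its rises were Prosalpha3, Prosalpha5 and Prosalpha6 of the alpha ring, and Prosbeta2, which carries the trypsin-like site, Prosbeta3 and Prosbeta6 of the beta ring. Prosbeta5, which carries the chymotrypsin-like site, lay at 0.30 (SE 0.15, limma adjusted p = 0.165). All 4 base ATPases rose, by 0.60 to 0.72. Of the other base subunits Rpn1 and Rpn2 rose, and the ubiquitin receptor gene Rpn13 lay at 0.21 (SE 0.14, limma adjusted p = 0.292). In the lid, Rpn3, Rpn5, Rpn7, Rpn8 and Rpn12 rose, while Rpn11, the deubiquitinase, lay at 0.34 (SE 0.14, limma adjusted p = 0.0931).

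**Figure D2:**
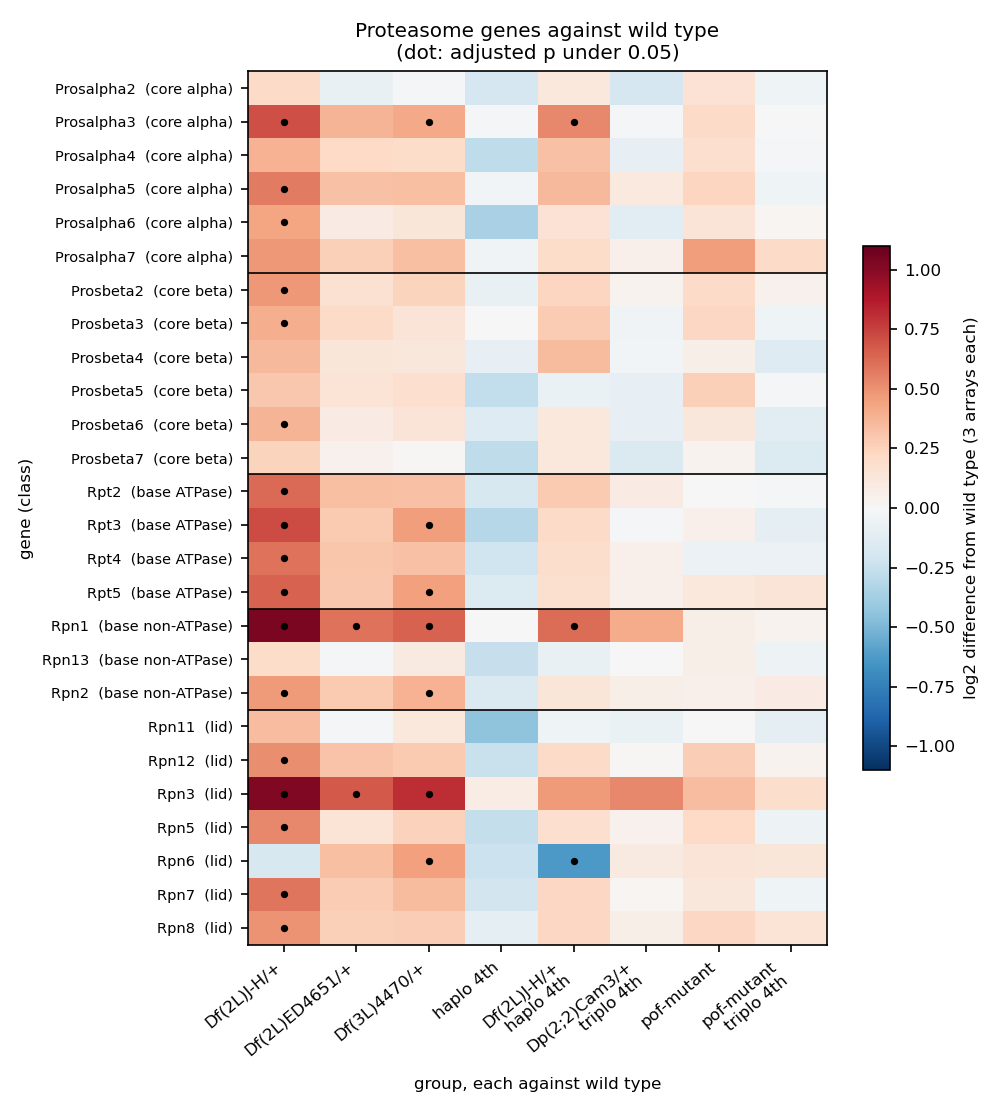
Log2 difference from wild type (colour, 3 arrays against 3) of the 26 members in rows, ordered by class, for the 8 other groups in columns, with a dot where the limma adjusted p was under 0.05. The 17 dots of Df(2L)J-H/+ fill most of its column, and Rpn6 is its only cell below 0. All columns share the wild type arrays. As deposited, 23, 14 and 14 of 26 cells of the first 3 columns lie above 0.

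Rpn1, the base subunit that docks shuttle factors carrying ubiquitinated substrates, had the largest rise. Its log2 expression was 10.35, 10.15 and 10.18 in the wild type arrays and 11.23, 11.28 and 11.27 in the Df(2L)J-H/+ arrays. The groups did not overlap, and the difference was 1.03 (SE 0.18, 2.05-fold, limma adjusted p = 0.000945).

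Rpn3, a structural lid subunit, followed. It stood at 10.50, 10.29 and 10.25 in wild type and at 11.32, 11.40 and 11.38 in Df(2L)J-H/+ arrays, again without overlap. The difference was 1.02 (SE 0.16, 2.02-fold, limma adjusted p = 0.000497). Rpt3, an ATPase of the base, was at 11.34, 11.21 and 11.25 in wild type and at 11.95, 11.99 and 12.03 in Df(2L)J-H/+ arrays. Every Df(2L)J-H/+ array lay above every wild type array, by 0.72 between the means (SE 0.14, 1.64-fold, limma adjusted p = 0.0024).

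Prosalpha3 led the core. Its wild type arrays were at 11.20, 10.95 and 11.05 and its Df(2L)J-H/+ arrays at 11.74, 11.81 and 11.80, a difference of 0.71 (SE 0.14, 1.64-fold, limma adjusted p = 0.00189). The lowest calls were also core genes: Prosalpha6 rose by 0.43, Prosbeta3 by 0.40 and Prosbeta6 by 0.37, with limma adjusted p of 0.0146, 0.0373 and 0.0397. These 3 were not called as deposited, at 0.19, 0.16 and 0.13. Rpn1, Rpn3, Rpt3, Prosalpha3, Rpt2, Rpt5 and Rpn7 were the 7 members that rose as deposited too.

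**Figure D3:**
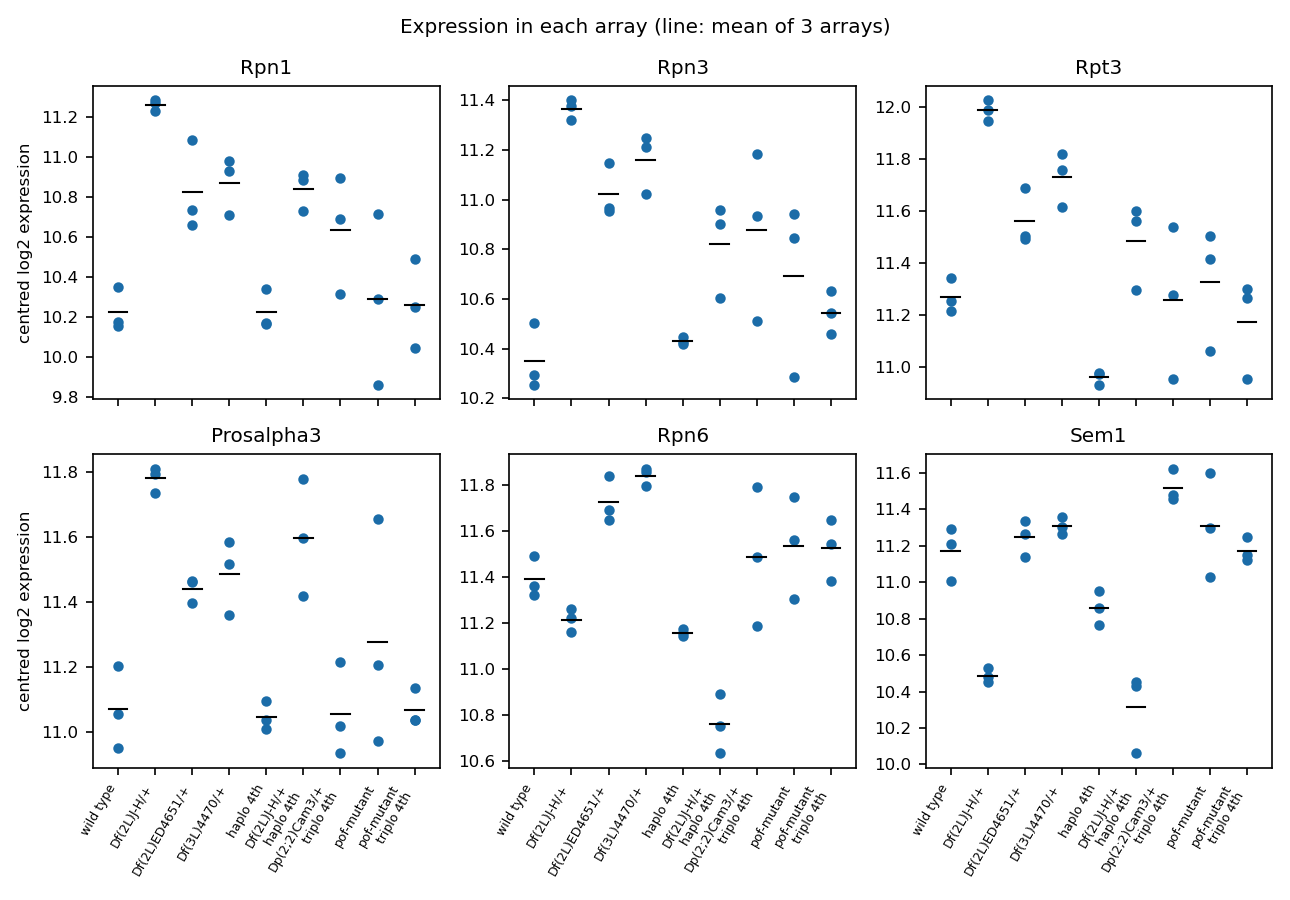
Centred log2 expression (vertical axis, its range set for each gene) of Rpn1, Rpn3, Rpt3, Prosalpha3, Rpn6 and Sem1 in each of the 27 arrays by group, with a line at the mean of 3 arrays. The first 4 genes are highest in Df(2L)J-H/+, and Rpn6 and Sem1 are lowest in flies of the combined genotype.

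Rpn6, the lid subunit that braces the lid against the core, went the other way in the flies with Df(2L)J-H. Its wild type arrays were at 11.49, 11.32 and 11.36, its Df(2L)J-H/+ arrays at 11.26, 11.22 and 11.16 and its combined-genotype arrays at 10.75, 10.63 and 10.89. Both groups lay wholly below wild type. The difference was −0.18 (SE 0.13, limma adjusted p = 0.36) in Df(2L)J-H/+ and −0.63 (SE 0.13, 0.646-fold, limma adjusted p = 0.00535) in flies of the combined genotype, where it was a call. As deposited, the difference in Df(2L)J-H/+ was −0.42 and passed the test (limma adjusted p = 0.0241).

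In the other deletions Rpn6 stood on the upper side. Its arrays were at 11.79, 11.87 and 11.86 in Df(3L)4470/+ and at 11.64, 11.84 and 11.69 in Df(2L)ED4651/+, all above wild type. Rpn6 lies on 2R, away from each deleted segment. Its probe set name marks it as able to match other transcripts, as do those of Prosbeta5, Prosbeta7, Rpn13 and the copy Rpn12R, and which ones was not analysed here.

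Sem1, the small lid subunit that the symbol rule does not select, was inside the lowered run of Df(2L)J-H. That run was found in the same ratios, those of Sem1 among them, so the low values of Sem1 are not independent of its place there. It was the stretch of at least 20 expressed genes of 2L with the largest drop below the arm median. The drop was summed with log2 ratios limited to a size of 2 and divided by the square root of the run length. The run held 31 genes from Fgop2 to chm at a mean of −0.65. The wild type arrays of Sem1 were at 11.29, 11 and 11.21, those of Df(2L)J-H/+ at 10.45, 10.48 and 10.53, and those of the combined genotype at 10.43, 10.06 and 10.45. It was lower in all 6 arrays with the deletion than in any wild type array, with differences of −0.68 (limma adjusted p = 0.00188) and −0.86 (limma adjusted p = 0.000362) between the means (SE 0.13 each). In the duplication, whose raised run of 202 genes also holds Sem1, it was at 11.62, 11.45 and 11.48, above all wild type arrays, at 0.35 (SE 0.13, limma adjusted p = 0.181). In yeast, Sem1 contacts Rpn3 and Rpn7 in the lid.

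No plain member lay in a segment of any deletion or of the duplication. Of all 40 members, only Rpt4R, a copy of an ATPase gene, lay in a run, that of Df(3L)4470 with 52 genes of 3L. Rpt4R was at 4.33, 4.12 and 4.26 in wild type and at 4.27, 4.77 and 4.42 in Df(3L)4470/+ arrays, below the filter and overlapping. A lower dose could not be read at this level.

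In the other 2 deletions fewer members passed the test. In Df(2L)ED4651/+ flies, 2 of 26 members rose and 0 fell by limma, where 13% of all genes rose and 8.86% fell, and 10 had an unadjusted p under 0.05. They were Rpn3 at 0.67 (SE 0.16, limma adjusted p = 0.00707) and Rpn1 at 0.60 (SE 0.18, limma adjusted p = 0.0243). Rpn3 was at 10.95, 11.15 and 10.97 and Rpn1 at 10.66, 11.09 and 10.73 in these arrays, all above wild type. Over all members 23 lay above 0, where 50.3% of all genes did, and 17 had 3 arrays above wild type, where 34.1% of all genes did. The count of calls was 1 without wild type replicate 2 or 3 or Df(2L)ED4651/+ replicate 2, and 12 when only these 2 groups entered the fit.

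In Df(3L)4470/+ flies, 7 members rose and 0 fell, where 9.76% of all genes rose and 5.29% fell, and 11 had an unadjusted p under 0.05. The largest were Rpn3 at 0.81 (SE 0.16, limma adjusted p = 0.00246), Rpn1 at 0.64 (SE 0.18, limma adjusted p = 0.0195) and Rpt3 at 0.46 (SE 0.14, limma adjusted p = 0.0342). The lowest calls were Rpn6 at 0.45, Prosalpha3 at 0.42 and Rpn2 at 0.38, and Rpt5 at 0.45 was between. Over all members 25 lay above 0, where 48.5% of all genes did, and 19 had 3 arrays above wild type, where 29.1% of all genes did. The count of calls was 1 without wild type replicate 2 or 3 or Df(3L)4470/+ replicate 2 or 3, 3 without wild type replicate 1 and 14 without the arrays of both pof-mutant groups.

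The level of both groups depended on the centring. After centring the median member lay at 0.26 in the former and 0.28 in the latter, and as deposited at 0.01 and 0.03. As deposited, Rpn3 was the 1 call in each, at 0.42 (limma adjusted p = 0.037) and 0.56 (limma adjusted p = 0.0123). The core mean was 0.17 and 0.19 after centring and −0.08 and −0.07 as deposited, and the regulatory mean 0.29 and 0.37 against 0.04 and 0.12. Thus Rpn3 rose in all 3 deletion groups on both scales. After centring, wild type was the lowest of all groups for Rpn3, and these comparisons share its arrays.

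The 3 deletion groups share the Oregon R parent, so Df(2L)J-H/+ was also set against the mean of the other 2, a comparison chosen after the data were seen. Of 26 members 25 lay above 0, with a median of 0.26 (0.27 as deposited), and 89.6% of all genes lay below that median. By limma 0 members rose and 1 fell, Rpn6, where 0.38% of all genes rose and 0.637% fell, and 14 members had an unadjusted p under 0.05. Rpn6 differed by −0.57 (SE 0.12, limma adjusted p = 0.0172), and Sem1 by −0.79 (SE 0.11, limma adjusted p = 0.000681). When any 1 of the 3 Df(2L)J-H/+ arrays was left out the Rpn6 call was lost, at −0.59 to −0.54. The largest member difference above 0 was that of Rpn1, 0.41 (SE 0.16, limma adjusted p = 0.456).

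With 1 copy of chromosome 4, the proteasome genes lay slightly lower. By limma 0 of 26 were called, where 3.85% of all genes were, and 4 had an unadjusted p under 0.05, but only 1 of 26 lay above 0, where 47.3% of all genes did, with a median of −0.18 (−0.22 as deposited). For 15 members all 3 arrays lay below all 3 wild type arrays, which held for 25.7% of all genes. The mean over members was −0.17 ± 0.05 (SD, n = 3 arrays), 88.8% of wild type. Its arrays ran from −0.22 to −0.14, beside −0.10 to 0.10 in the wild type arrays. The count of calls was 4 without the arrays of both pof-mutant groups, 3 with only the groups compared and 16 with array weights. Rpn11 was lowest: its arrays were at 11.28, 11.26 and 11.04, those of wild type at 11.80, 11.44 and 11.67. The difference was −0.44 (SE 0.14, limma adjusted p = 0.0857), and as deposited −0.49 (limma adjusted p = 0.0345), which passed the test. Marker genes of other tissues moved as well: in haplo 4th arrays the female germline genes averaged 8.86 to 9.45 and the female soma and follicle cell genes 8.32 to 10.5, both below wild type. The muscle genes averaged 13.3 to 13.4, above wild type, and the gut genes 10.7 to 11.9 against 10.3 to 10.8. Their part in the haplo 4th values was not tested.

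Where flies had 1 chromosome 4, Df(2L)J-H again went with higher proteasome expression. Against haplo 4th, 25 of 26 members lay above 0, where 52.1% of all genes did, with a median of 0.39 (0.29 as deposited), and 93.6% of all genes lay below that median. For 23 members the 3 arrays lay above the 3 haplo 4th arrays, which held for 11.9% of all genes. By limma 2 rose and 0 fell, where 0.163% of all genes rose and 0.38% fell, and 22 members had an unadjusted p under 0.05. The 2 calls were lost as deposited and without haplo 4th replicate 1, 2 or 3 or combined-genotype replicate 1 or 3, and 1 was left without combined-genotype replicate 2. Without the arrays of both pof-mutant groups there were 13 calls, and with array weights 17.

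The calls were alpha-ring genes. Prosalpha4 was at 10.40, 10.38 and 10.24 in haplo 4th and at 11.02, 10.79 and 11.04 in combined-genotype arrays, a difference of 0.60 (SE 0.14, 1.52-fold, limma adjusted p = 0.0465). Prosalpha6 was at 10.76, 10.83 and 10.82 and at 11.40, 11.16 and 11.40, a difference of 0.51 (SE 0.12, 1.43-fold, limma adjusted p = 0.0452). In both genes the groups were well apart. Rpn6 was again the only member below 0, at −0.40 (SE 0.13, limma adjusted p = 0.297).

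**Figure D4:**
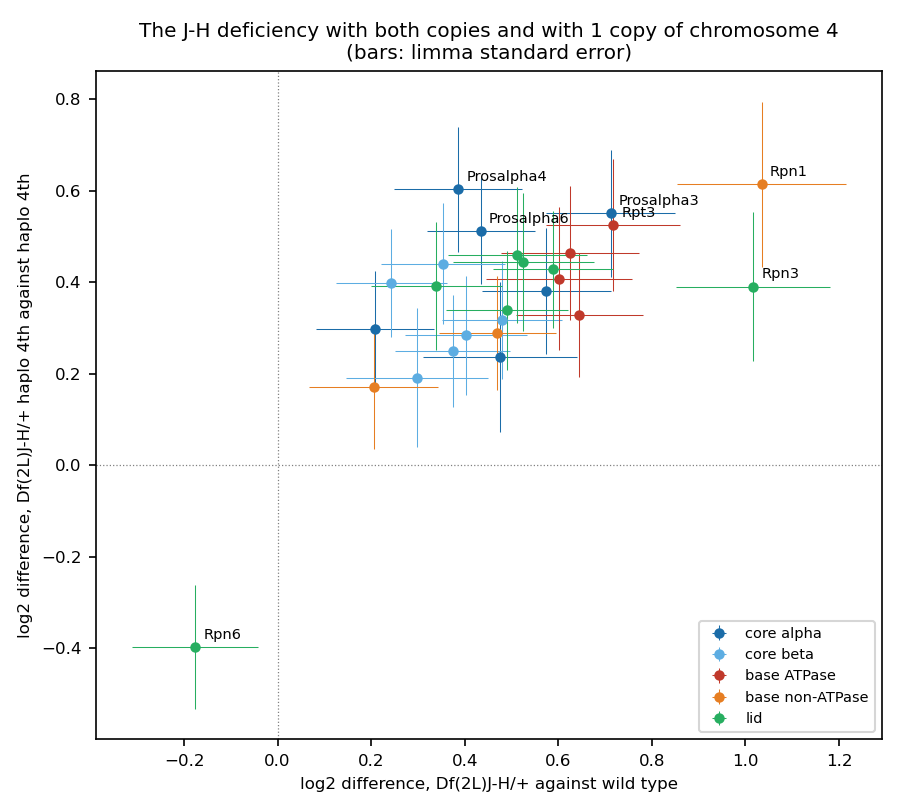
Log2 difference of each of the 26 members, Df(2L)J-H/+ minus wild type (horizontal) and combined genotype minus haplo 4th (vertical), with limma standard errors and colours for the classes. The comparisons share no arrays, 25 members lie above 0 on both axes, and Rpn6 lies alone in the lower left at −0.18 and −0.40. As deposited, 23 lie above 0 on the horizontal axis and 25 on the vertical.

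With the combined genotype set against Df(2L)J-H/+ instead, all 26 members were lower, where 50.2% of all genes lay above 0, with a median of −0.29 (−0.20 as deposited, with 23 below 0). By limma 1 fell and 0 rose, where 2.53% of all genes fell and 1.92% rose, and 15 had an unadjusted p under 0.05. The call was Rpt3, at 11.56, 11.30 and 11.60 against 11.95, 11.99 and 12.03, a difference of −0.50 (SE 0.14, limma adjusted p = 0.0494), lost when any 1 array of either group was left out and as deposited (limma adjusted p = 0.0797). The regulatory genes lay at a median of −0.38 and the core genes at −0.20. All 14 regulatory genes and 6 of 12 core genes had 3 arrays below the 3 of Df(2L)J-H/+, which held for 20.2% of all genes. Marker genes moved as well: gut genes averaged 11.4 to 11.9 in combined-genotype arrays and 9.12 to 10.0 in Df(2L)J-H/+ arrays. Of 5 gut genes tested, 2 rose, with a median of 2.05. The median was 1.31 for female soma and follicle cell genes, 0.39 for female germline genes and −0.23 for muscle genes, with 0 calls. Their part in these differences was not tested.

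Against wild type, the combined genotype had a median of 0.21 (0.06 as deposited), with 22 members above 0, where 47.8% of all genes were, and with 2 members that rose and 1 that fell, where 5.61% of all genes rose and 4.3% fell. Rpn1 rose by 0.61 (SE 0.18, limma adjusted p = 0.0354) and Prosalpha3 by 0.53 (SE 0.14, limma adjusted p = 0.0193), each with all 3 arrays above wild type. The fall was that of Rpn6, which also held as deposited, at −0.77 (limma adjusted p = 0.000563). Without wild type replicate 2 or 3 or combined-genotype replicate 3, 1 call was left, and without the arrays of both pof-mutant groups there were 9.

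For the interaction of Df(2L)J-H and 1 chromosome 4, the combined genotype minus Df(2L)J-H/+ was set against haplo 4th minus wild type. Df(2L)J-H/+ has an Oregon R parent, and both groups with 1 chromosome 4 have a parent of the compound stock. The interaction therefore also holds differences between crosses, and it cannot show whether the effects of deletion and dosage add up. By limma 0 members were called, where 0.596% of all genes were, and 1 had an unadjusted p under 0.05. Differences ran from −0.63 (SE 0.23, limma adjusted p = 0.234) for Rpn3 to 0.22 (SE 0.19, limma adjusted p = 0.608) for Prosalpha4, with a median of −0.16 (−0.01 as deposited).

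The remaining groups gave no calls among the members. In Dp(2;2)Cam3/+ triplo 4th flies 0 were called by limma, where 3.31% of all genes were, and 2 had an unadjusted p under 0.05, with a median of 0.01 after centring and −0.05 as deposited. Rpn3 was highest, at 11.18, 10.93 and 10.51 against 10.50, 10.29 and 10.25 in wild type, a difference of 0.53 (SE 0.16, limma adjusted p = 0.0844) whose lowest array stood just above wild type. In the arrays labelled pof-mutant 0 were called, where 3.78% of all genes were, and 2 had an unadjusted p under 0.05, with a median of 0.15 and 24 above 0, where 54% of all genes were. Their spread was wide: the mean over members ran from −0.14 to 0.41 between the 3 arrays.

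In the arrays labelled pof-mutant triplo 4th 0 were called, where 1.41% of all genes were, and 0 had an unadjusted p under 0.05. The mean over members was 0.002 ± 0.009 (SD, n = 3 arrays), a small spread because core and regulatory genes cancelled in it. The core means were −0.08, 0.10 and −0.09 in the 3 arrays, and the regulatory means 0.09, −0.09 and 0.07. Between the groups labelled pof-mutant triplo 4th and pof-mutant, 0 of 7378 genes were called by limma (0%), and the members lay at a median of −0.17, which ran from −0.30 to −0.02 when 1 array was left out.

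The balance of core against regulatory genes does not depend on the centring, since a constant per array cancels in it. The core mean minus the regulatory mean, relative to wild type, was −0.18 ± 0.04 in Df(3L)4470/+, −0.13 ± 0.10 in Df(2L)ED4651/+ and −0.13 ± 0.04 with Df(2L)J-H/+ (SD, n = 3 arrays each), and all 9 arrays lay below the 3 wild type arrays, which spanned −0.03 to 0.02. In haplo 4th it was 0.04 ± 0.002 and in the combined genotype 0.07 ± 0.007, above wild type in all 6 arrays. In the combined genotype this rested on Rpn6 alone: without it, a setting added after the data were seen, the mean over 13 regulatory genes left 0.009 ± 0.009, within the wild type range of −0.02 to 0.02. Without Rpn6 the value was −0.19 ± 0.04 in Df(2L)J-H/+ and 0.04 ± 0.003 in haplo 4th, the latter still above wild type in 3 arrays of 3. In Dp(2;2)Cam3/+ triplo 4th and both groups labelled pof-mutant the SD was 0.14 to 0.20, and the arrays of each group fell below and within, or on both sides of, the wild type range.

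**Figure D5:**
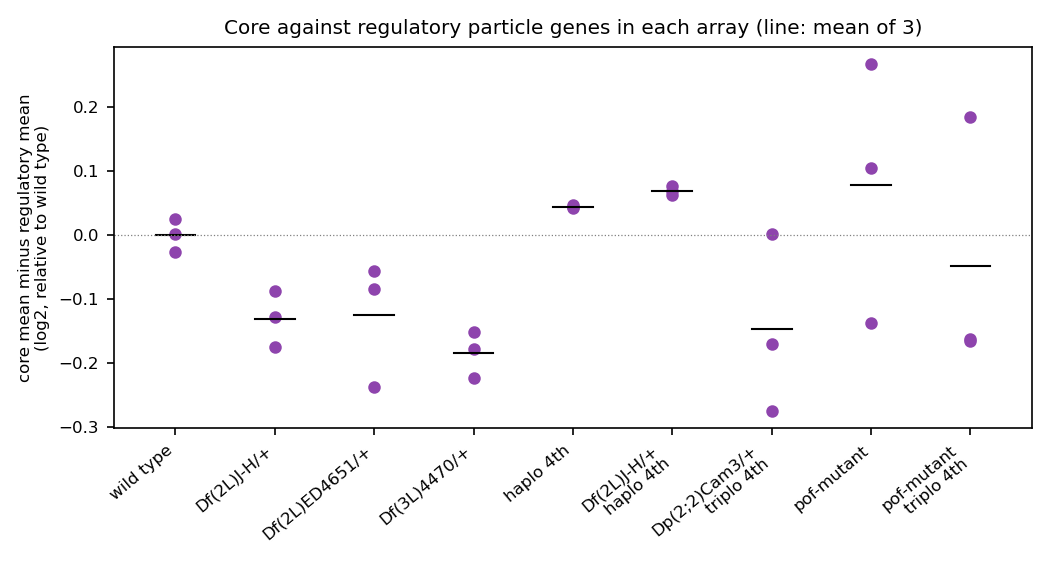
Core mean minus regulatory particle mean (log2, relative to the wild type mean) in each array, with a line at the mean of 3 arrays. The 9 arrays of the deletion groups lie from −0.24 to −0.06, and the 6 arrays of both haplo 4th groups from 0.04 to 0.08, those of the combined genotype within the wild type range once Rpn6 is left out.

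Among genes that assemble, regulate or serve the proteasome, 17 of 19 listed were measured. In Df(2L)J-H/+ 4 rose and 2 fell by limma, where 11% of all genes rose and 6.83% fell, with a median of 0.25 after centring. Pomp, the chaperone of core assembly, was at 10.13, 10.28 and 10.22 in wild type and at 10.92, 10.93 and 10.98 in Df(2L)J-H/+, a rise of 0.73 (SE 0.16, limma adjusted p = 0.00528). It rose by 0.63 and 0.66 in the other 2 deletion groups (limma adjusted p = 0.0114 and 0.0098). All 9 arrays of these groups lay above wild type, while as deposited Pomp passed the test in Df(2L)J-H/+ only, at 0.49.

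Both deubiquitinases that join the regulatory particle from outside rose as well after centring. As deposited, the median gene lay at −0.25 in Df(2L)J-H/+ and −0.27 in Df(3L)4470/+, so the size of their rises there depends on the centring. Usp14, which binds Rpn1, rose by 0.62 (SE 0.13, limma adjusted p = 0.00366) in Df(2L)J-H/+ and by 0.64 against haplo 4th in flies of the combined genotype (SE 0.13, limma adjusted p = 0.0253). Its arrays were at 11.18, 10.83 and 11.07 in wild type, 11.56, 11.69 and 11.68 in Df(2L)J-H/+, 10.72, 10.87 and 10.66 in haplo 4th and 11.49, 11.20 and 11.46 in the combined genotype. Every Df(2L)J-H/+ array was above every wild type array, and every combined-genotype array was above every haplo 4th array. Uch-L5, which binds Rpn13, rose by 0.64 in Df(2L)J-H/+ (SE 0.16, limma adjusted p = 0.0121) and by 0.50 in Df(3L)4470/+ (limma adjusted p = 0.0416), and was lower in the combined genotype than in Df(2L)J-H/+, at −0.71 (limma adjusted p = 0.0142). Besides Sem1, rngo, the fly homologue of the shuttle protein Ddi1, fell, at −0.72 in Df(2L)J-H/+ (SE 0.22, limma adjusted p = 0.0276) and −0.82 in Df(2L)ED4651/+ (limma adjusted p = 0.0119).

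Cnc itself, the factor that drives the subunit genes, lay at 0.27 in Df(2L)J-H/+ (SE 0.15, limma adjusted p = 0.204). It was at 10.30, 10.22 and 10.21 in wild type and 10.68, 10.45 and 10.42 in Df(2L)J-H/+ arrays, apart but not called, and the activity of a protein is not measured here. Rad23, a shuttle protein that docks on Rpn1, lies on chromosome 4. It was at 10.56, 10.32 and 10.75 in wild type and at 9.54, 9.56 and 9.55 in haplo 4th arrays, a fall of −0.99 (SE 0.25, limma adjusted p = 0.0308).

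Of 30 genes of ubiquitin supply and transfer and of the p97 unfoldase, 24 were measured, and in Df(2L)J-H/+ 8 rose and 1 fell by limma, where 11% of all genes rose and 6.83% fell, with a median of 0.22. The largest were the polyubiquitin genes Ubi-p63E at 0.98 (SE 0.13, limma adjusted p = 7.99e-05) and Ubi-p5E at 0.74 (SE 0.16, limma adjusted p = 0.00412), the ubiquitin-conjugating enzyme gene Ubc6 at 0.76 (SE 0.12, limma adjusted p = 0.000458) and TER94, the fly p97, at 0.59 (SE 0.16, limma adjusted p = 0.0151). RpL40, a ubiquitin and ribosomal protein fusion, fell, at −0.27 (SE 0.09, limma adjusted p = 0.0392). All values and counts of these genes are after centring. As deposited, the median gene of Df(2L)J-H/+ lay at −0.25, so the size of these rises depends on the centring. In Df(3L)4470/+ 5 rose and 3 fell, where 9.76% of all genes rose and 5.29% fell, and 2 of the latter, Ube3a at −1.35 and Ufd1 at −0.71, lie in its lowered run. In Df(2L)ED4651/+ 4 of 24 rose and 1 fell, where 13% of all genes rose and 8.86% fell. In haplo 4th 2 rose, where 2.44% of all genes rose and 1.41% fell, and in the combined genotype 3, where 5.61% rose. In the duplication 2 rose, where 2.02% of all genes did, and in the arrays labelled pof-mutant 1, where 1.36% did. Ubi-p63E was among the genes that rose in each of these groups, Df(2L)J-H/+ and Df(3L)4470/+ included.

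Ubi-p63E was also higher where the subunit genes were not. It was at 11.72, 11.80 and 11.76 in wild type, 12.73, 12.69 and 12.81 in Df(2L)J-H/+, 12.42, 12.41 and 12.50 in haplo 4th and 12.71, 12.57 and 12.57 in combined-genotype arrays. It thus rose in haplo 4th, by 0.69 (SE 0.13, limma adjusted p = 0.00575), where 25 of 26 subunit genes lay below 0. Wild type was the lowest group, since the lowest array of the other 8 groups, in Dp(2;2)Cam3/+ triplo 4th, was at 12.03.

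The testis-type copies stayed near background. Prosalpha4T2 was the brightest, at 5.26, 5.16 and 5.07 in wild type and with 6.05 in Df(2L)J-H/+ replicate 3 as its highest array, and no copy had a group mean above 6. In a limma fit without the filter, 6 of 14 copies rose in Df(2L)J-H/+ flies, 7 in Df(2L)ED4651/+ flies, 5 in Df(3L)4470/+ flies and 0 fell, where 23.5%, 28% and 26% of all 11894 genes rose. As deposited 4, 5 and 3 rose, where 7.84%, 9.78% and 7.6% of all genes did. Prosbeta4R1, for example, was at 3.88, 3.92 and 3.94 in wild type and 4.75, 4.65 and 5.10 in Df(2L)J-H/+ arrays. At levels this near background a difference does not measure the gene.

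The copies lay close to all dim genes. Their medians were 0.33, 0.36 and 0.40 in the 3 deletion groups after centring, and those of the 4516 genes below the filter 0.35, 0.39 and 0.38. As deposited the values were 0.09, 0.11 and 0.14 for the copies and 0.11, 0.14 and 0.13 for the dim genes. Male genes likewise averaged 4.47 to 4.54 in wild type and 4.69 to 5.0 in the deletion arrays. In flies of the combined genotype 2 copies rose, where 7.6% of all genes did, and in the other 4 groups 0 did.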

How the data were processed

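The deposited table holds 1 log2 value per probe set and array, which the authors made by RMA (background correction, normalization between arrays, summary over probes). Whether all arrays were normalized together is not given in the sources used here. Of 18952 probe sets, 13647 had 1 gene symbol, 402 several and 4903 none in the platform annotation, and 13544 of the first could be paired with RefSeq genes, whose assembly (Release 6 plus ISO1 MT) gave current names, arms and gene order. Of several probe sets of a gene the brightest on average over the 27 arrays was taken. Genes with a wild type mean above 6 were kept, and each array was centred on its mean over them, as in the study. Groups were compared with limma 3.58.1 in R 4.3.3, with 1 mean per group over 27 arrays, 2-sided tests and Benjamini-Hochberg adjustment over 7378 genes (11894 for the testis-type copies). The number of arrays limits the precision. The script was tested on simulated data. Alternatives were no or median centring, no filter, the mean over probe sets, array weights, the replicate number as a block, only the groups compared, leaving out each array and leaving out both pof-mutant groups.

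Named genes were the 3 highest and 3 lowest called members per comparison with wild type, copies above 6, members in a segment and up to 4 called genes per pathway list. Others, Rpn6 and Sem1 among them, were named after their values were seen. Members, gene lists and tests were chosen with earlier results of these data known. Marker lists, with calls against wild type, were female soma and follicle cells (7 genes, 3 fell in Df(2L)J-H/+), female germline (8, of which 1 fell in Df(3L)4470/+, 3 in Df(2L)J-H/+ and 7 in Df(2L)ED4651/+), male accessory gland and testis genes (18, of which 2 passed the filter and were tested, and 1 of these rose in each group with a deletion), thoracic muscle (3, none called), gut (6, of which 5 were tested, and 1 fell in Df(2L)J-H/+ and 1 in Df(3L)4470/+) and head (1, not called). Sequences were not analysed here.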

Additional observations from a re-analysis of the deposited data

Results flagged for a closer look

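For Ubi-p63E, the difference between flies with and without Df(2L)J-H was smaller on 1 copy of chromosome 4 than on 2 copies. The crosses also differed between these comparisons, so whether dosage changed the effect of the deletion was not tested. Ubi-p63E rose by 0.54 to 0.56 against wild type in the other 2 deletion groups, which share the Oregon R parent. Df(2L)J-H/+ lay 0.43 above their mean (SE 0.11, limma adjusted p = 0.0689), which was not a call. The interaction was −0.81 (SE 0.18, limma adjusted p = 0.043), with a rise of 0.98 against wild type on 2 copies and arrays at 12.71, 12.57 and 12.57 against 12.42, 12.41 and 12.50 on 1 copy. These values are after centring, whose constants do not cancel in the interaction. As deposited, the median gene lay at 0.14 in it, so its size depends on the centring. Rpn6 differed between Df(2L)J-H/+ and the other 2 deletion groups, by −0.57 (SE 0.12, limma adjusted p = 0.0172), while the other 25 members lay above 0 in that comparison.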

How the results depend on the processing

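Of 465 single results, called members recomputed under each alternative, 343 stayed past the threshold, 122 did not and 0 turned direction. Counts of called members follow, in the order Df(2L)J-H/+, Df(2L)ED4651/+, Df(3L)4470/+, haplo 4th and Df(2L)J-H/+ haplo 4th against wild type, where the values reported were 17, 2, 7, 0 and 3. They were 8, 1, 1, 1 and 1 as deposited, and 26, 16, 18, 16 and 10 with array weights, which called 5223 of 7378 genes in the first comparison and were estimated gene by gene because an iterative estimate did not converge. Without the 6 arrays of both pof-mutant groups, chosen after seeing the data, the last 4 were 12, 14, 4 and 9. Centring on the median gave 4 in Df(2L)ED4651/+ and 1 in haplo 4th, no filter gave 4 in Df(2L)ED4651/+, and a fit of only the groups compared gave 12 and 3 in these groups. Leaving out 1 array gave 9 to 16, 1 to 2, 1 to 7, 0 to 0 and 1 to 2.

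Df(2L)J-H/+ haplo 4th against Df(2L)J-H/+ (1 call) gave 0 as deposited, 25 with array weights, 16 without the pof-mutant arrays and 5 with only the groups compared, and against haplo 4th (2 calls) 0, 17, 13 and 0. Leaving out 1 array gave 0 to 0 and 0 to 1. For the interaction (0 calls) the counts were 8 with array weights, 1 without the pof-mutant arrays, 2 with only the groups compared and 0 to 0 leaving out 1 array. For Df(2L)J-H/+ against the other deletions (1 call) they were 24, 5, 4 and 0 to 1. In Dp(2;2)Cam3/+ triplo 4th array weights gave 9, the fit without the pof-mutant arrays 2 and leaving out 1 array 0 to 1, the 1 call without Dp(2;2)Cam3/+ triplo 4th replicate 3. Array weights gave 8 in pof-mutant, 7 in pof-mutant triplo 4th and 8 between them, and leaving out 1 array gave 0 to 2, 0 to 0 and 0 to 0, with 2 calls without pof-mutant replicate 1. The causes were not tested.

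Samples share only a replicate number: in no comparison did all 3 same-numbered pairs correlate above 0.1. Single pairs did: between pof-mutant triplo 4th and pof-mutant the values were 0.08, 0.825 and 0.49. Replicate 3 of Dp(2;2)Cam3/+ triplo 4th and of wild type correlated at 0.66. With the number as a block, Df(2L)J-H/+ haplo 4th had 0 calls against Df(2L)J-H/+ and 0 against haplo 4th, Df(3L)4470/+ had 5 and the other counts did not move.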

Other observations

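The 8 genes of the chaperonin CCT averaged −0.25 ± 0.08 in Df(3L)4470/+ arrays, −0.44 ± 0.06 in Df(2L)ED4651/+ arrays and −0.28 ± 0.21 in Df(2L)J-H/+ arrays, below wild type also as deposited (−0.50, −0.69 and −0.53), and −0.29 ± 0.20 in haplo 4th arrays. The 34 cytosolic ribosomal protein genes averaged 0.09 ± 0.04, 0.03 ± 0.02 and 0.02 ± 0.08 after centring and −0.16, −0.22 and −0.22 as deposited in the 3 deletion groups, in the same order (SD, n = 3 arrays). The chaperonin genes also averaged −0.42 ± 0.23 in combined-genotype arrays and −0.44 ± 0.33 in Dp(2;2)Cam3/+ triplo 4th arrays. They averaged 0.16 ± 0.58 in the arrays labelled pof-mutant and −0.006 ± 0.40 in those labelled pof-mutant triplo 4th. These values are descriptions, with no test.

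The probe set shared by Prosalpha1 and Prosalpha1R was at 12.21, 11.97 and 12.26 in wild type, 12.47, 12.57 and 12.62 in Df(2L)J-H/+, 11.71, 11.70 and 11.49 in haplo 4th, 11.76, 11.63 and 11.64 in Dp(2;2)Cam3/+ triplo 4th, and in the arrays labelled pof-mutant 11.26, 11.89 and 11.43 and pof-mutant triplo 4th 11.26, 11.52 and 11.13. The 3 Df(2L)J-H/+ arrays lay above wild type and these other 4 groups below it.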
